A study of Rattus norvegicus with 16 samples.

Results

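The heat shock and cold response genes followed here are 9 transcripts measured in rat frontal cortex: the cytosolic chaperones Hspa8, Hsph1, Dnajb1, Hsp90aa1, Hsp90ab1 and Hspb1, the mitochondrial chaperonin Hspd1, and the cold-inducible RNA-binding proteins Cirbp and Rbm3. Each was found by its symbol among 28168 loci, and each had 1 locus. All 9 passed the filter on low values and were among the 14824 loci tested. The Cirbp locus also carries the symbol RGD1562114, so its value covers both.

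The 16 libraries form 4 groups of 4, all from male Sprague-Dawley rats that were 11 weeks old when a 7-week diet began. HF_5AzaD rats ate a high fat diet and received 5-AzaD in PBS, injected into the abdomen over 10 days; 5-AzaD is 5-aza-2′-deoxycytidine, which blocks DNA methyltransferases. HF_PBS rats ate the same diet and received PBS, the vehicle, in the same way. HF rats ate the high fat diet and chow rats the chow diet, and for neither group do the labels name an injection. Poly-A RNA was sequenced from whole tissue, and the values are FPKM, fragment counts divided by transcript length and by the number of fragments mapped in the library. In whole tissue, fewer cells of a type and less RNA per cell cannot be told apart.

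Chaperones of the HSP70 and HSP90 families fold new proteins and refold damaged ones, with J proteins (HSP40) that load clients and exchange factors that release them. Under heat or protein damage, the transcription factor HSF1 binds repeats of the unit nGAAn in the promoters of many of these genes and raises their transcription. Cirbp and Rbm3 respond in the opposite way to temperature: mild cooling raises both, and in the rodent brain Rbm3 has been tied to the upkeep of synapses in the cold.

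Promoter sequences (RefSeq, rat build GRCr8, 250 bases before to 50 after each gene's start) were matched for 8 of the 9 genes, all but Hsp90aa1. For Hspd1 all 250 bases before this start lie within the annotated gene's bounds, as do 148 for Cirbp and 42 for Rbm3. Stretches of 7 promoters are printed because they hold the heat shock units that set apart some of the chaperone genes, or, for the cold-inducible pair, the only element found in both. Each runs 5′ to 3′ along the gene's strand. In Hspa8, Hsph1, Dnajb1, Hspb1 and Hspd1 the capitals mark paired heat shock units, and in Cirbp and Rbm3 the CCAAT box; other matches are left in lower case.
Hspa8, chr8:50080414-50080513, plus strand: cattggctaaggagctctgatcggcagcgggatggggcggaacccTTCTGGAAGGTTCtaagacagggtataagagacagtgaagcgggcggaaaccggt
Hsph1, chr12:10427268-10427367, plus strand: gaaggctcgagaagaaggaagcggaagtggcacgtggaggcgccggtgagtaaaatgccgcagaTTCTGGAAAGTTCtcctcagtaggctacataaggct
Dnajb1, chr19:41431142-41431241, minus strand: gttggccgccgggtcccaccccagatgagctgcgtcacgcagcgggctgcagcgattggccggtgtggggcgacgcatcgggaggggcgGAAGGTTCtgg
Hspb1, chr12:26432361-26432460, minus strand: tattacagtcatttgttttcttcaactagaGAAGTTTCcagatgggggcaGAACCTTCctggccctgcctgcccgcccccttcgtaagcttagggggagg
Hspd1, chr9:64084262-64084279, minus strand: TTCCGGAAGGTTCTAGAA
Cirbp, chr7:10189627-10189686, minus strand: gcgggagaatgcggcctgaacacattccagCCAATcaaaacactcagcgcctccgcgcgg
Rbm3, chrX:17020803-17020862, plus strand: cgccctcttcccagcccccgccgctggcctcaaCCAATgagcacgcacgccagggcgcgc

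Motifs were searched on both strands of the whole 300-base windows. The head-to-head pair GAANNTTC was present in 5 of 8 windows (Hspa8, Hsph1, Dnajb1, Hspb1 and Hspd1), against 8.59% of 33469 rat promoters. The tail-to-tail pair TTCNNGAA was present in Hspa8, Hsph1 and Hspd1, against 8.77% of all promoters. The element of 3 alternating units, GAANNTTCNNGAA, holds both pairs and was present in the same 3 windows, against 0.798%. It began at base -55 and again at -213 in Hspa8, and at -36 in Hsph1. In Hspd1 it lay within the gene's bounds, as overlapping matches from -242. None of these letters lie in the windows of Hsp90ab1, Cirbp and Rbm3. The CCAAT box was found in 6 of 8 windows (37.5% of all promoters) and TATAAA in that of Rbm3 (14.2%). A match describes the letters of a window and is not a measured binding site.

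Some properties of the libraries bear on every comparison. Absolute depth is unknown. The steps between low values give a depth relative to chow 2 of 34.6% to 44.1% in HF_5AzaD and 32.5% to 40.9% in HF_PBS. It was 30.1% to 39.0% in HF and, leaving out chow 2 itself, 38.4% to 67.8% in chow. Pairs of libraries correlated between 0.862 and 0.984. Seen after the data were examined, 1 library of each group (HF_5AzaD 3, HF_PBS 1, HF 5 and chow 1) shares few of these steps with the other 12, so calls are also given for those 12. The depths of these 4 libraries are uncertain, as they rest on 5 to 9 loci, against at least 23 in the others. They include the highest depths of HF_5AzaD, HF_PBS and HF and, leaving out chow 2, of chow. Without these libraries the highest depths were 40.3%, 36.9%, 32.1% and 54.3%. Cortical neuron and glial markers were present in every group, with none of the markers found at 0 throughout, but glial content varied. Summed oligodendrocyte markers (6 of 6 found) ranged from 2123 to 6747 FPKM in HF_5AzaD, 3159 to 12913 in HF_PBS, 2879 to 4800 in HF and 3307 to 5197 in chow, with HF_PBS 3 and 4 highest. Summed excitatory neuron markers (5 of 6 found) ranged from 1324 to 1719 FPKM in HF_5AzaD, 551 to 1525 in HF_PBS, 1547 to 3142 in HF and 2248 to 2428 in chow. Striatal neuron markers (6 of 6 found) summed to 739 FPKM in HF 8 and 560 in HF_PBS 4, against 123 to 389 in the other 14 libraries. The part of any of these in the results was not tested.

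In level per length the 9 genes spanned from Hsp90ab1, with a mean of 420 FPKM over the 16 libraries, to Hspa8 with 2.23 FPKM. Hsp90ab1 ranked 175 of the 14824 loci tested and lay above the second, Hsph1 (106 FPKM), in all 16 libraries. Hsp90aa1 followed at 68.4 FPKM. Cirbp (33.1), Rbm3 (32.9), Dnajb1 (31.8) and Hspd1 (29.6) formed a cluster whose neighbours changed places between libraries, the higher of a pair being above in 10 or 11 of 16. Hspb1 averaged 12.9 FPKM. Hspa8, the constitutive cytosolic HSP70, ranked only 12507 of 14824. RefSeq names 33 pseudogenes after Hspa8, 23 after Hsp90ab1, 20 after Hspd1 and 16 after Hsp90aa1, and none after the other 5 genes. Reads that match such near-identical copies could have been split or dropped in counting. The levels of these 4 genes, and their differences between groups, are therefore uncertain.

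**Figure D1:**
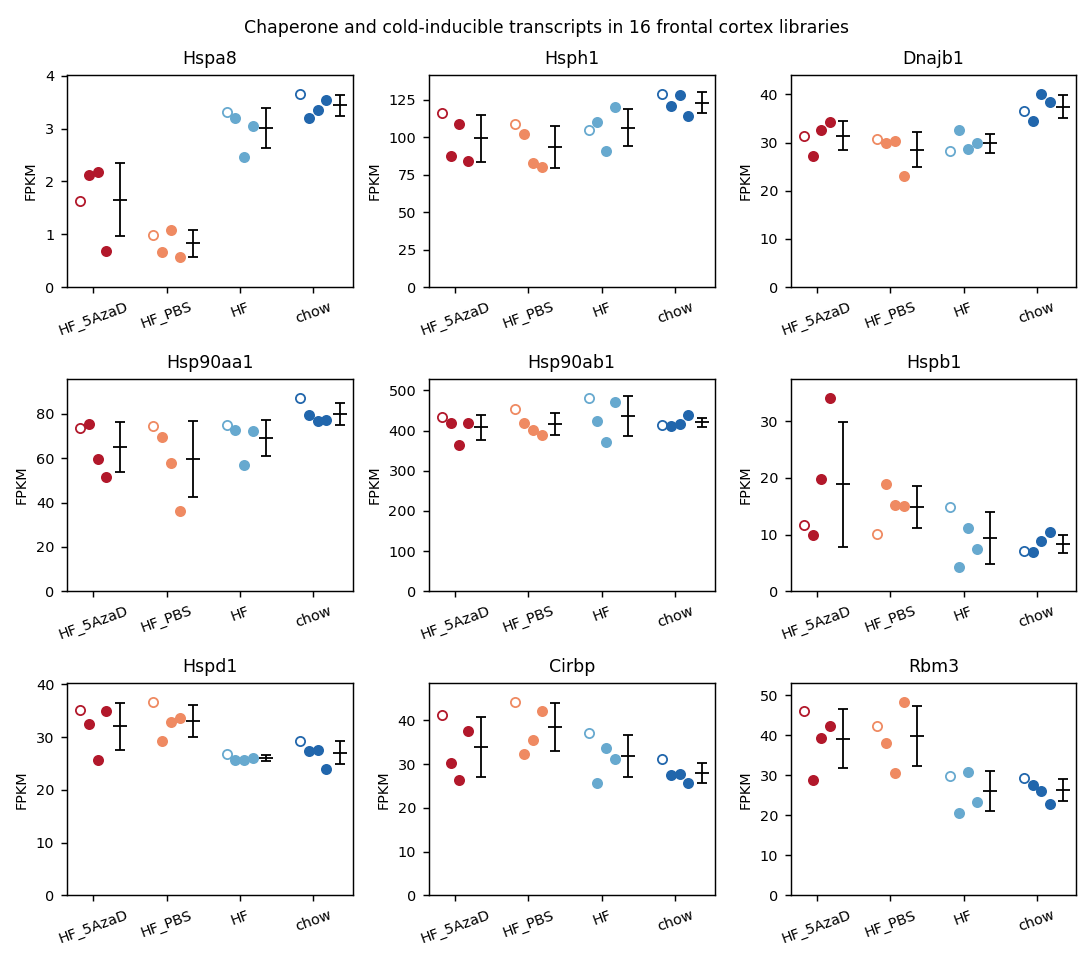
FPKM of the 9 genes in each library (points; 4 per group, vertical axes from 0), with the mean ± SD beside them; open points are the 4 libraries that share few low-value steps with the rest. Hspa8 lies at 0.563 to 2.18 FPKM in the 8 injected libraries and at 2.47 to 3.66 in the 8 others, whereas Hsp90ab1 overlaps across all groups.

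Hspa8 encodes the constitutive HSP70 (HSC70), which folds new proteins and strips clathrin from synaptic vesicles. Its level was 1.64, 2.12, 2.18 and 0.679 FPKM in HF_5AzaD, and 0.994, 0.67, 1.08 and 0.563 FPKM in HF_PBS. It was 3.32, 3.2, 2.47 and 3.05 FPKM in HF and 3.66, 3.21, 3.35 and 3.55 FPKM in chow. All 8 libraries of injected rats lay below all 8 libraries of the other groups, while HF_5AzaD and HF_PBS overlapped through HF_5AzaD 7. The means were 1.65 ± 0.693, 0.826 ± 0.247, 3.01 ± 0.374 and 3.44 ± 0.202 FPKM (SD, n = 4) in HF_5AzaD, HF_PBS, HF and chow.

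Hspa8, as counted in the deposited values, fell in both injected groups against both uninjected ones, the sole gene of the 9 to do so. The part of reads lost to or shared with its pseudogenes in these differences was not tested. In HF_5AzaD against HF the log2 difference was -0.77 (SE 0.222, limma adjusted p = 0.0344), and in HF_PBS against HF it was -1.42 (adjusted p = 0.00226). In HF_5AzaD against chow it was -0.94 (adjusted p = 0.0177), and in HF_PBS against chow -1.59 (adjusted p = 0.00211). These 4 comparisons share their groups, so they are not independent of one another. Against HF_PBS, HF_5AzaD lay higher by 0.65 (95% interval 0.17 to 1.12), which did not pass (unadjusted p = 0.0107, adjusted p = 0.586). The calls of HF_PBS held in every alternative run, with adjusted p up to 0.0227. That of HF_5AzaD against HF ended without HF_5AzaD 3 or 7 or HF 5, 6 or 8 (adjusted p from 0.0598 to 0.101; the difference without HF_5AzaD 7 was -0.50), with no filter on low values (0.0654) and with only the libraries of the comparison in the fit (0.112). Both HF_5AzaD calls ended with the 12 libraries alone (adjusted p = 0.134 and 0.0758). With replicate number as a block in the fit, the call of HF_5AzaD against HF also ended (0.177).

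Dnajb1, a J protein that passes clients to HSP70 and is itself a classic heat shock target, stood apart from Hspa8: its high group was chow alone. It measured 31.4, 27.2, 32.7 and 34.2 FPKM in HF_5AzaD and 30.7, 30, 30.4 and 23 FPKM in HF_PBS. It measured 28.2, 32.5, 28.7 and 30 FPKM in HF, against 36.6, 34.5, 40.1 and 38.4 FPKM in chow. Every library of the 3 high fat diet groups lay below every chow library, and those 3 groups overlapped each other. Only the difference of HF_PBS from chow passed (-0.39, SE 0.101, adjusted p = 0.0132). The differences from chow were -0.25 in HF_5AzaD (adjusted p = 0.0942) and -0.32 in HF (95% interval -0.54 to -0.10, unadjusted p = 0.0067, adjusted p = 0.682).

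Hsph1 (HSP105 or HSP110), which releases nucleotide from HSP70 and helps to dissolve aggregates, had 116, 87.7, 109 and 84.1 FPKM in HF_5AzaD and 109, 102, 83.1 and 80.5 FPKM in HF_PBS. It had 105, 110, 90.9 and 120 FPKM in HF and 129, 121, 128 and 114 FPKM in chow. All HF_PBS libraries lay below all chow libraries, and the log2 difference of -0.40 passed (SE 0.129, adjusted p = 0.0326). The corresponding difference of HF_5AzaD from chow was -0.32 (adjusted p = 0.0942), with HF_5AzaD 3 inside the chow range. The HF_PBS call ended without HF_PBS 3 or 4 or chow 1, 2 or 3 (adjusted p from 0.061 to 0.108), with each library centred on its median (difference -0.35, adjusted p = 0.0544) and with no filter on low values (0.0525). It also ended with replicate number as a block in the fit (0.0631).

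The HSP90 pair differed in how far its members varied. Hsp90aa1, the stress-inducible cytosolic form, measured 73.7, 75.3, 59.5 and 51.7 FPKM in HF_5AzaD and 74.5, 69.5, 57.7 and 36 FPKM in HF_PBS. It measured 74.9, 72.5, 57.1 and 72.2 FPKM in HF and 87.1, 79.3, 76.6 and 77.1 FPKM in chow. As for Dnajb1, every library of the other groups lay below the lowest chow library, but no comparison passed: the differences from chow were -0.31 in HF_5AzaD (adjusted p = 0.252), -0.48 in HF_PBS (0.0719) and -0.21 in HF (0.821). Without HF_PBS 1 or HF_PBS 2 the HF_PBS difference from chow passed (adjusted p = 0.0309 and 0.0468).

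Hsp90ab1, the constitutive form, had 433, 420, 363 and 419 FPKM in HF_5AzaD, 453, 420, 401 and 389 in HF_PBS, 481, 425, 371 and 471 in HF, and 414, 412, 417 and 438 in chow. The groups overlapped in every comparison, and the largest of the 6 log2 differences was -0.09, in HF_5AzaD against HF, with a 95% interval of -0.31 to 0.12. Its SD within groups, 0.115 on the log2 scale, was the smallest of the 9 genes, and 8.7% of tested loci had a smaller one. Within a library the ratio of Hsp90aa1 to Hsp90ab1 averaged 0.159 ± 0.0248 in HF_5AzaD, 0.142 ± 0.0342 in HF_PBS, 0.158 ± 0.00818 in HF and 0.191 ± 0.0148 in chow. The ratio was at least 0.176 in chow, above all HF and HF_PBS libraries, and HF_5AzaD overlapped it.

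Hspb1 (HSP27), a small heat shock protein that holds unfolded proteins and is abundant in glia and vessels after injury, was the most variable of the 9 genes, with an SD within groups of 0.576 on the log2 scale. It measured 11.7, 9.98, 19.8 and 34.1 FPKM in HF_5AzaD and 10.1, 19, 15.3 and 15 FPKM in HF_PBS. It measured 14.8, 4.32, 11.1 and 7.46 FPKM in HF and 7.15, 7.01, 8.92 and 10.4 FPKM in chow. Both injected groups overlapped HF and chow through their lower values, and no difference passed. It came to 0.93 in HF_5AzaD against HF (95% interval 0.13 to 1.73, adjusted p = 0.101) and 0.98 in HF_5AzaD against chow (adjusted p = 0.0796). In HF_PBS it came to 0.73 against HF (adjusted p = 0.169) and 0.78 against chow (0.127). Without HF_5AzaD 5, the HF_5AzaD difference from chow passed at an adjusted p of 0.0492. With only the libraries of the comparison in the fit, the HF_PBS difference from chow passed at 0.0226.

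Hspd1 (HSP60), the chaperonin of the mitochondrial matrix, had 35.1, 32.4, 25.7 and 35 FPKM in HF_5AzaD and 36.6, 29.3, 32.9 and 33.6 FPKM in HF_PBS. It had 26.8, 25.6, 25.7 and 26 FPKM in HF and 29.3, 27.4, 27.5 and 24 FPKM in chow. HF_PBS lay wholly above HF, whose 4 values were close together, and HF_5AzaD overlapped HF through HF_5AzaD 6. Hspd1 rose in HF_PBS against HF by 0.34 on the log2 scale (SE 0.102, adjusted p = 0.0291) and against chow by 0.28 (adjusted p = 0.0497). The differences of HF_5AzaD were 0.28 from HF (adjusted p = 0.0717) and 0.23 from chow (0.118), and both passed without HF_5AzaD 6 (adjusted p = 0.0172 and 0.0218); the first also passed with the step split as a term in the fit (0.0481). The call of HF_PBS against HF ended without HF_PBS 1, 3 or 4 or HF 6, 7 or 8 (adjusted p from 0.0509 to 0.0764), and that against chow without HF_PBS 1, 3 or 4 or any chow library (0.0519 to 0.141). With only the libraries of the comparison in the fit these adjusted p values were 0.053 and 0.0564, with the 12 libraries alone 0.102 and 0.113, and with no filter on low values that against chow was 0.0655. With replicate number as a block in the fit, that against chow was 0.0985.

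Rbm3, the more strongly cold-induced of the RNA-binding pair, measured 46, 28.9, 39.3 and 42.4 FPKM in HF_5AzaD and 42.3, 38.1, 30.5 and 48.2 FPKM in HF_PBS. It measured 29.9, 20.6, 30.8 and 23.3 FPKM in HF and 29.2, 27.5, 26.1 and 22.8 FPKM in chow. In each injected group 3 of 4 libraries exceeded all 8 uninjected ones; HF_5AzaD 5 and HF_PBS 3 were the low ones.

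Rbm3 rose in all 4 comparisons of an injected with an uninjected group. The log2 differences were 0.57 in HF_5AzaD against HF (SE 0.170, adjusted p = 0.0387), 0.60 in HF_PBS against HF (0.0223), 0.55 in HF_5AzaD against chow (0.0434) and 0.57 in HF_PBS against chow (0.0239), comparisons that share their groups. HF_PBS lay wholly above chow, and the other 3 pairs of groups overlapped. Each call rested on several libraries. In HF_5AzaD against HF it ended without HF_5AzaD 3, 6 or 7 or HF 6 or 8 (adjusted p from 0.0602 to 0.136), and in HF_5AzaD against chow without HF_5AzaD 3, 6 or 7 or any chow library (0.0602 to 0.13). In HF_PBS against HF it ended without HF_PBS 4 or HF 6 or 8 (0.0554 to 0.0829), and against chow without HF_PBS 4 or chow 3 or 4 (0.0533 to 0.084). With only the libraries of the comparison in the fit, the calls against HF ended (0.0968 in HF_5AzaD and 0.0632 in HF_PBS), and with no filter on low values both HF_5AzaD calls did (0.0728 against HF and 0.077 against chow). With the 12 libraries alone the 4 differences kept their sign, with adjusted p = 0.114, 0.0571, 0.124 and 0.0612. With replicate number as a block in the fit, the calls of HF_5AzaD against HF (0.28) and HF_PBS against chow (0.0553) ended.

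Cirbp, which like Rbm3 binds messenger RNA and is induced by cooling and by other stresses, had 41.3, 30.3, 26.4 and 37.5 FPKM in HF_5AzaD and 44.1, 32.2, 35.4 and 42.1 FPKM in HF_PBS. It had 37, 25.7, 33.6 and 31.2 FPKM in HF and 31.1, 27.6, 27.7 and 25.7 FPKM in chow. It passed in HF_PBS against chow alone, where the groups lay apart (0.44, SE 0.148, adjusted p = 0.0384). Its differences were 0.27 in HF_PBS against HF (adjusted p = 0.2), 0.08 in HF_5AzaD against HF (0.753) and 0.25 in HF_5AzaD against chow (0.237). The call ended without HF_PBS 1, 3 or 4 or chow 2, 3 or 4 (adjusted p from 0.0551 to 0.11), with no filter on low values (0.0678) and with the 12 libraries alone (0.0664). It also ended with replicate number as a block in the fit (0.0508). The ratio of Rbm3 to Cirbp within a library averaged 1.17 ± 0.227 in HF_5AzaD, 1.04 ± 0.153 in HF_PBS, 0.818 ± 0.0712 in HF and 0.94 ± 0.0441 in chow, so the pair did not keep a fixed proportion. Cirbp and Hspd1 were the 2 genes of the 9 whose highest value in each group came from the library that shares few steps, a pattern found in 3.97% of tested loci.

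**Figure D2:**
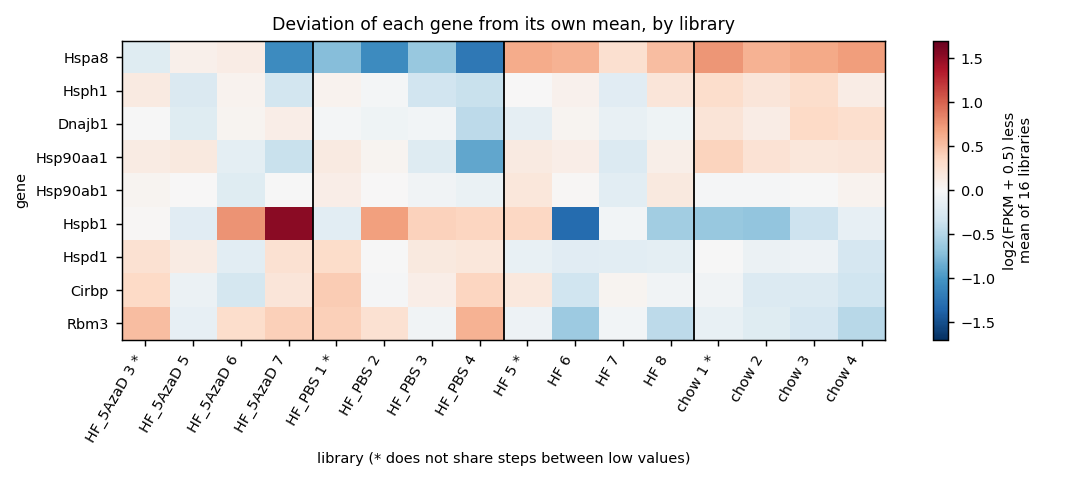
Log2(FPKM + 0.5) of each gene in each library less the gene's own mean over the 16 libraries (colour, from -1.7 to 1.7), with libraries grouped as HF_5AzaD, HF_PBS, HF and chow. Hspa8 is below its mean in all 4 HF_PBS libraries and above it in all HF and chow libraries; Hspb1 varies most within groups, and Hsp90ab1 least.

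Calls among the 9 genes were made in the 4 comparisons of an injected with an uninjected group. In HF_5AzaD against HF, 1 gene rose (Rbm3) and 1 fell (Hspa8), where 6.61% of all tested loci were called higher and 7.64% lower; the groups did not overlap for 1 gene and for 17.7% of loci. In HF_PBS against HF, 2 rose (Hspd1 and Rbm3) and 1 fell (Hspa8), where 10.7% and 13.2% of loci did, and the groups lay apart for 2 genes and for 21.2% of loci. In HF_5AzaD against chow, 1 rose and 1 fell (7.18% and 9.11% of loci), with 3 genes apart (27.2% of loci). In HF_PBS against chow, 3 rose (Hspd1, Cirbp and Rbm3) and 3 fell (Hspa8, Hsph1 and Dnajb1), where 12.4% and 15.7% of loci did, and 6 of 9 lay apart, against 33.3% of loci. With 9 genes, the shares in the first 3 of these comparisons are near those of all loci, and no test of the shares was made. Any difference in handling or sequencing between injected and uninjected rats cannot be told apart from injection, and the comparisons with chow differ in diet as well.

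The diet alone gave no call. In HF against chow limma called 0% of the loci tested, with 1020 of 14824 at an unadjusted p under 0.05, and of the 9 genes Dnajb1 alone had such a p. The groups lay apart for 2 of the 9 (Dnajb1 and Hsp90aa1, both lower in HF) and for 6.95% of loci. In HF_5AzaD against HF_PBS limma likewise called 0%; an unadjusted p under 0.05 was reached by 1100 of the loci and, of the 9 genes, by Hspa8 alone. No gene of the 9 lay apart there, against 2.4% of loci. The intervals in this comparison still hold sizeable differences, such as -0.59 to 1.00 for Hspb1 and -0.39 to 0.34 for Rbm3.

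**Figure D3:**
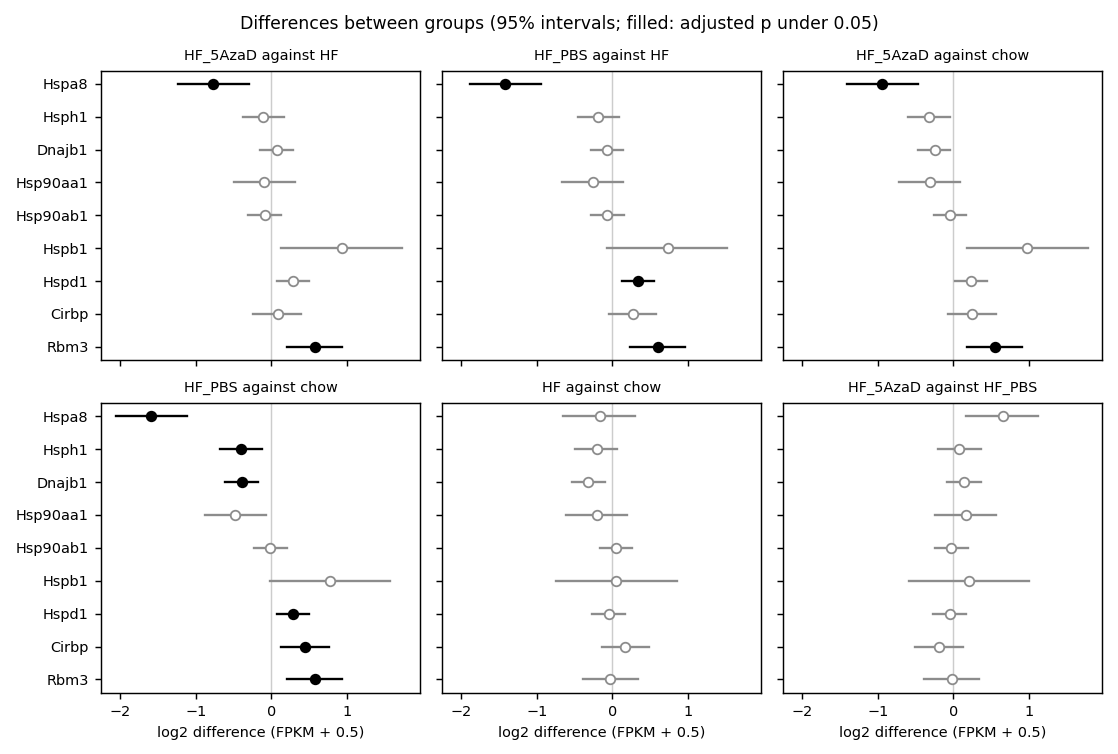
Log2 differences (FPKM + 0.5) of the 9 genes in the 6 comparisons, first-named group minus second, with 95% intervals; filled points have a limma adjusted p under 0.05. Hspa8 lies between -0.77 and -1.59 and Rbm3 between 0.55 and 0.60 in the 4 comparisons of an injected with an uninjected group, and no point is filled in HF against chow or in HF_5AzaD against HF_PBS.

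The genes also differed in which of them varied alike. Likeness was measured as the mean absolute difference between 2 genes' centred log2 values over the 16 libraries, a description that group differences and shared depth both enter. The closest pairs of the 9 were Hsph1 with Dnajb1 (0.127), Hspd1 with Cirbp (0.127) and Hsp90aa1 with Hsph1 (0.132), and Cirbp with Rbm3 stood at 0.189. Among other genes, the nearest to Hspa8 were Paqr9 (0.219) and Tspyl4 (0.22), of 10171 candidates with a median of 0.655. Tspyl4 averaged 54.6 FPKM in HF_5AzaD, 43.1 in HF_PBS, 94.5 in HF and 107 in chow, an order of groups like that of Hspa8 at a far higher level. The nearest to Rbm3 were RGD1560220 (0.0811) and Trpm7 (0.0913), and Trpm7, an ion channel joined to a kinase, averaged 12.9, 14.2, 8.24 and 8.83 FPKM in the same 4 groups. Those nearest to Cirbp were Hnrpd (0.079) and C1d (0.0875), and to Hspd1 Ggnbp2 (0.0564) and Tpgs2 (0.0589). Hsph1 lay nearest to Uba2 (0.0648) and Rnf6 (0.0766), and Dnajb1 to Nrbp (0.0834) and Vps36 (0.0859). Hsp90aa1 lay nearest to Elp2 (0.104) and Jkamp (0.105), Hsp90ab1 to Scamp1 (0.0456) and Necap1 (0.053), and Hspb1 to Ptprt (0.256) and Tagln2 (0.297).

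The surrounding chaperone network was read from 9 lists with 96 genes, 89 of them in the table and 81 tested. The strictly heat-inducible HSP70 genes Hspa1a and Hspa1b share 1 locus, which was below the filter at 0.0653 to 0.999 FPKM. In HF_5AzaD against HF, 14 of 81 rose and 4 fell (17.3% and 4.94%, against 6.61% and 7.64% of all loci), with a median log2 difference of 0.11 against 0.02 for all loci. In HF_PBS against HF, 17 rose and 9 fell (21% and 11.1%, against 10.7% and 13.2% of all loci), with a median of 0.16 against 0.01. In HF_5AzaD against chow, 10 rose and 10 fell (12.3% each, against 7.18% and 9.11% of all loci). In HF_PBS against chow, 15 rose and 14 fell (18.5% and 17.3%, against 12.4% and 15.7%). None of the 81 passed in HF against chow or in HF_5AzaD against HF_PBS, where 0 loci did. With each library centred on its median, HF_PBS had 22 higher and 7 lower calls against HF, where 24.6% of all loci were called in either direction, and 23 higher and 13 lower against chow, where 29.7% were. With the 12 libraries alone, HF_5AzaD had 4 higher and 1 lower against HF and 0 higher and 1 lower against chow, where 3.01% and 2.21% of all loci were called.

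Among HSP90 co-chaperones, 4 of 17 tested rose in HF_5AzaD against HF, where 6.61% of all loci did, and 5 of 17 rose in HF_PBS against HF, where 10.7% did. Stip1 (HOP), which hands clients from HSP70 to HSP90, was at 159, 138, 140 and 173 FPKM in HF_5AzaD and 154, 135, 168 and 174 FPKM in HF_PBS. It was at 114, 77.8, 93.1 and 98 FPKM in HF and 114, 107, 109 and 102 FPKM in chow, so all 8 injected libraries lay above all 8 others. Its differences from HF were 0.68 in HF_5AzaD (adjusted p = 0.00717) and 0.72 in HF_PBS (0.00262). Ahsa2, related to an activator of the HSP90 ATPase, rose by 0.68 (adjusted p = 0.025) and 0.80 (0.00801) in the same comparisons. Sgtb, a co-chaperone of neurons, fell in HF_PBS against HF (log2 difference -1.22, adjusted p = 0.0338), at 21.4 ± 12.5 FPKM in HF_PBS and 45.6 ± 16.2 in HF; in HF_5AzaD the difference was -1.10 (0.0661).

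The J proteins moved both ways. Of 14 tested, 1 rose and 2 fell in HF_5AzaD against HF, where 6.61% and 7.64% of all loci did. In HF_PBS against HF, 1 rose and 5 fell, where 10.7% and 13.2% did. Dnajc5 (cysteine string protein), which guards SNARE proteins at the synapse, averaged 48.1 ± 3.81 FPKM in HF_5AzaD and 43.5 ± 7.17 in HF_PBS, against 82.1 ± 21.9 in HF. Its log2 differences were -0.73 (adjusted p = 0.0159) and -0.89 (0.00392). Dnajc8, a J protein of the spliceosome whose locus also carries Mir3583, rose by 0.42 (adjusted p = 0.0173) and 0.48 (0.00527). Dnajc27 fell in both (-0.43, adjusted p = 0.0162, and -0.45, 0.00639). Dnajb14, a J protein of the endoplasmic reticulum membrane, fell in HF_PBS (-1.09, adjusted p = 0.037) and had -0.95 (0.0792) in HF_5AzaD; it has 2 loci, of which the higher is given. Of the 7 exchange factors, Bag1 rose against HF in both (0.41, adjusted p = 0.0417, and 0.47, 0.0174). Bag2 rose against HF in HF_5AzaD (0.49, 0.0131) and had 0.15 (0.311) in HF_PBS. Bag6 fell against HF in both (-0.22, 0.0445, and -0.26, 0.0151). Against chow, 0 of the 7 were called in HF_5AzaD (7.18% of all loci higher, 9.11% lower) or in HF_PBS (12.4% and 15.7%). The differences of Bag1 from chow were 0.20 (adjusted p = 0.273) and 0.25 (0.145).

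All 12 tested subunits of the cytosolic chaperonin TRiC and of prefoldin, which feed and fold actin and tubulin, had a positive difference in HF_5AzaD against HF, with a median of 0.21, and in HF_PBS against HF, with a median of 0.27. With quantile normalization 11 of 12 did in each. The call was reached by 4 in each comparison, where 6.61% and 10.7% of all loci were called higher, and by none in the other direction. With the 12 libraries alone, 0 and 2 reached it, where 3.01% and 16.2% of all loci were called in either direction. Cct7 averaged 121 ± 14.6 FPKM in HF_5AzaD and 123 ± 19.1 in HF_PBS, against 85.7 ± 7.42 in HF (0.49, adjusted p = 0.0162, and 0.51, 0.00727). Pfdn5 averaged 161 ± 30.8 FPKM in HF_5AzaD and 155 ± 23.9 in HF_PBS, against 108 ± 13.8 in HF.

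Mitochondrial chaperones did not follow Hspd1 as a group. Hspe1 (HSP10), its partner lid, rose in HF_PBS against HF by 0.50 (adjusted p = 0.0292; 90.4 ± 15.7 FPKM in HF_PBS and 63.4 ± 8.91 in HF), and had 0.44 (0.0675) in HF_5AzaD. Hspa9 (mortalin), the mitochondrial HSP70, fell in HF_PBS against HF (-0.49, adjusted p = 0.0441) and had -0.48 (0.0631) in HF_5AzaD. The protease Lonp1 fell in HF_5AzaD (-0.28, adjusted p = 0.0226) and in HF_PBS (-0.30, 0.0102). The other 5 of 8 did not pass in either.

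Of the HSP70 and HSP110 relatives, Hspa2 alone of 7 tested passed against HF, in HF_5AzaD (1.18, adjusted p = 0.034). Of all loci, 6.61% were called higher and 7.64% lower there. Hspa2 averaged 19.7 ± 13.9 FPKM in HF_5AzaD and 7.13 ± 1.67 in HF, and HF_5AzaD 7 held 39.3 FPKM. In HF_PBS its difference was 0.26 (0.598), where 10.7% and 13.2% of all loci were called. With the 12 libraries alone, 0 of the 7 were called in HF_5AzaD against HF, where 3.01% of all loci were. Against chow, the HSP110 genes Hspa4l and Hspa4, relatives of Hsph1, fell in both injected groups. Hspa4l averaged 23.2 ± 4.5 FPKM in HF_5AzaD and 22.9 ± 5.13 in HF_PBS, against 37.5 ± 2.61 in chow (-0.70, adjusted p = 0.0185, and -0.73, 0.00805). The differences of Hspa4 were -0.44 (adjusted p = 0.0452) and -0.48 (0.0218). In HF_5AzaD against chow, 0 of the 7 were called lower with the 12 libraries alone and 1 with median centring. All loci called in either direction came to 2.21% and 16.2% in those runs. In HF_PBS against chow, 2 of the 7 were called lower in each, where 22.4% and 29.7% of all loci were called.

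Among 5 small heat shock proteins tested, Hspb11, an intraflagellar transport protein despite its name, rose in HF_5AzaD (0.77, adjusted p = 0.00784) and HF_PBS (0.69, 0.00512) against HF. Cryab (alpha B-crystallin), which is abundant in oligodendrocytes, rose in HF_PBS against HF (1.36, adjusted p = 0.0135) and had 0.70 (0.179) in HF_5AzaD. It measured 120, 67.6, 261 and 167 FPKM in HF_PBS, 47.2, 52.7, 67.6 and 46.8 in HF, and 85.1, 106, 116 and 79 in chow. Against chow, Cryab did not pass in HF_PBS (0.52, adjusted p = 0.263) or in HF_5AzaD (-0.15, 0.788). Its 2 highest libraries, HF_PBS 3 and 4, also held the highest summed oligodendrocyte markers (11885 and 12913 FPKM); the part of those cells in it was not tested.

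Of 4 genes of the heat shock factor group, Hsf1 averaged 15.1 ± 1.61 FPKM in HF_5AzaD, 14.2 ± 1.81 in HF_PBS, 15 ± 0.922 in HF and 13.4 ± 1.07 in chow, and passed in no comparison. Hsbp1, a small protein that binds HSF1, rose in HF_PBS against HF (0.48, adjusted p = 0.0136), at 334 ± 44.7 FPKM in HF_PBS and 239 ± 18.6 in HF, and had 0.36 (0.0618) in HF_5AzaD. Among 7 cold shock domain genes and partners, Ybx1, a packaging protein of messenger RNA, rose in HF_PBS against HF (0.69, adjusted p = 0.0191) and had 0.47 (0.102) in HF_5AzaD. None of the 7 was called lower in any comparison, where at most 15.7% of all loci were (HF_PBS against chow). Differences below 0 did occur, such as -0.76 for Carhsp1 in HF_5AzaD against HF_PBS (adjusted p = 0.592), where 3 of the 7 were above 0. Carhsp1 rose in HF_PBS against chow (0.81, adjusted p = 0.0402), at 19.6 ± 8.93 FPKM in HF_PBS and 10.1 ± 0.88 in chow.

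**Figure D4:**
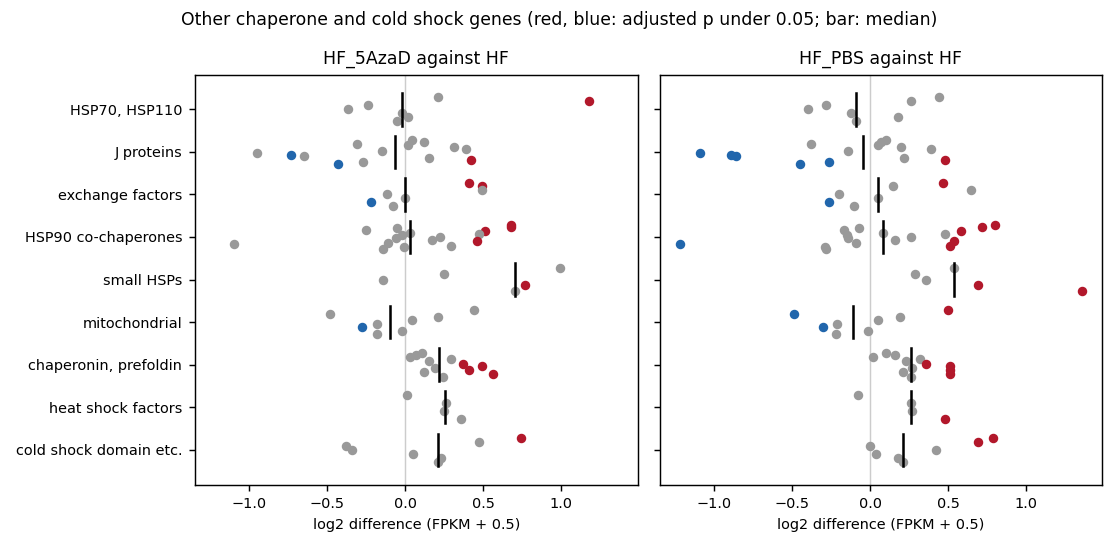
Log2 differences (FPKM + 0.5) of the 81 tested genes of 9 chaperone and cold shock lists in HF_5AzaD against HF (left) and HF_PBS against HF (right); red and blue points have a limma adjusted p under 0.05, and bars are list medians. Chaperonin and prefoldin subunits lie to the right of 0 in both panels, with medians of 0.21 and 0.27, and J proteins lie on both sides.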

How the data were processed

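RNA-seq of 16 frontal cortex libraries was used. Per the labels' protocols, poly-A RNA was taken from about 1000 ng of total RNA, and fragments of 200 to 400 bp were sequenced. The deposited table holds FPKM per locus, made by the authors, with a status per value. Per the submitters' processing notes, build rn5 was used with Cufflinks and Cuffdiff, TopHat and TopHat2, and Bowtie and Bowtie2. The sources used here do not give the strand, so overlapping and antisense transcripts cannot be told apart. Groups follow the treatment field; the letters HFD mean diet alone in the design text but PBS rats in the titles, and exchanging HF and HF_PBS would exchange their values here.

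Of 28168 loci, 161 with a status other than OK were left out (among list genes Hspa12a and Dnajb5), and 14824 with a mean of at least 1 FPKM were tested. Differences came from limma 3.58.1 (R 4.3.3) on log2(FPKM + 0.5), which understates changes of low genes such as Hspa8, with 1 mean per group over all 16 libraries and Benjamini-Hochberg adjustment over all loci. Unless called unadjusted, each p-value is limma's adjusted one, and a call needs one under 0.05. The code was tested on simulated data. Nothing in the labels says that libraries are separate animals, so p-values measure only a spread among samples that may be technical. The 9 genes and the lists were chosen with earlier results of these data known. List genes named are called ones with the largest differences, up to 2 per direction, list and comparison. Exceptions are Hspa1a, Hspa1b, Hsf1, Dnaja4, Cryaa, Hspb7 and Bag3, named after their values were seen, and Hspa12a and Dnajb5, named for their status. One called list gene is not reported here. The table held 0 value columns outside these samples. Python 3.11.15 made summaries and plots. Alternatives varied the pseudocount, filters, scaling and libraries.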

Additional observations from a re-analysis of the deposited data

Results flagged for a closer look

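Each of the 36 sets of 4 values (9 genes in 4 groups) was examined for a library far from the other 3 of its group, measured by the gap to its nearest neighbour as a share of the group's range; chance marks about 1 in 20 such sets. In 2 sets the share exceeded the 95% critical value of Dixon's test. Hsp90aa1 was 57.1 FPKM in HF 7, against 72.2 to 74.9 FPKM in the other HF libraries (share 0.852). Dnajb1 was 23 FPKM in HF_PBS 4, against 30 to 30.7 FPKM in the other HF_PBS libraries (share 0.909).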

How the results depend on the processing

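Among the recomputed differences of single genes, 882 kept their direction and side of the threshold, 75 lost a call and 8 gained one. A further 25, of 13 differences, changed sign, 0 of them with a call in either fit. The cause of these changes was not tested. With the 12 libraries that share steps (chosen after seeing the data), the HF minus chow difference became -0.01 for Hsp90ab1 and -0.27 for Hspb1; with median centring, that of Hsp90ab1 in HF_PBS against chow became 0.04; with the replicate block, that of Cirbp in HF_5AzaD against HF became -0.03. Without 1 library, differences in HF against chow ranged from -0.20 to 0.36 for Hspb1 and -0.11 to 0.08 for Rbm3. In HF_5AzaD against HF_PBS they ranged from -0.06 to 0.29 for Hsp90aa1, -0.06 to 0.03 for Hsp90ab1, -0.13 to 0.45 for Hspb1, -0.11 to 0.05 for Hspd1 and -0.14 to 0.11 for Rbm3. They ranged from -0.11 to 0.03 for Dnajb1 in HF_PBS against HF, and in HF_5AzaD against HF from -0.19 to 0.01 for Hsp90aa1 and -0.03 to 0.19 for Cirbp. For Hsp90ab1 they ranged from -0.06 to 0.01 in HF_PBS against chow and -0.07 to 0.01 in HF_5AzaD against chow. In HF_PBS against HF the number of the 9 genes called, 3 as reported, was 1 with only the libraries of the comparison in the fit. It was 1 with the 12 libraries, and 1 to 3 without 1 library. Of all 14824 loci, 3536 were called as reported, and 1433, 2406 and 1633 to 4036 in those runs. In HF_5AzaD against HF, 2 of the 9 genes were called as reported, and 0 with no filter on low values (28007 loci tested). The number was 0 with only the libraries of the comparison, 0 with the replicate block, 0 with the 12 libraries and 0 to 2 without 1 library. Of all loci, 2112 were called as reported, and 1514, 27, 0, 446 and 395 to 2306 in those runs. In HF_PBS against chow, 6 of the 9 genes were called as reported. The number was 3 with no filter, 2 with the replicate block, 3 with the 12 libraries and 2 to 7 without 1 library. Of all loci, 4173 were called as reported, and 3736, 2331, 3327 and 2013 to 4629 in those runs. In HF_5AzaD against chow, 2 of the 9 genes were called as reported. The number was 1 with no filter, 0 with the 12 libraries and 1 to 3 without 1 library. Of all loci, 2414 were called as reported, and 1698, 328 and 399 to 2906 in those runs. With the step split as a term in the fit the numbers of the 9 genes called were 3, 3, 6 and 2. Those of all loci were 3879, 2408, 4629 and 2778. The 2 comparisons without calls stayed at 0 of the 9 genes throughout. Same-numbered libraries showed no shared deviation (r from -0.164 to 0.0236 for HF_PBS and chow, and -0.107 to 0.0641 for HF_5AzaD and HF). With so few pairs this cannot exclude that the numbers pair them. With the replicate block, Hspb1 gained a call in HF_PBS against chow (adjusted p = 0.0408). Hsph1 (0.0631), Dnajb1 (0.0717), Hspd1 (0.0985), Cirbp (0.0508) and Rbm3 (0.0553) lost their calls there. In HF_5AzaD against HF, Hspa8 (0.177) and Rbm3 (0.28) lost theirs. Absolute depth is unknown, so no counting error can be given for the low values of Hspa8, which lie near the pseudocount of 0.5.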

Other observations

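One library of HF_5AzaD, number 7, held the highest value of several stress chaperones, chosen here after their values were seen. Hspb1 was 34.1 FPKM there, against 4.32 to 19.8 FPKM in the other 15 libraries. The locus of the heat-inducible HSP70 genes Hspa1a and Hspa1b was 0.999 FPKM, against 0.0653 to 0.694 elsewhere. Hspa2 was 39.3 FPKM, against 5.54 to 19.4 elsewhere, and the lens and muscle small heat shock genes Cryaa and Hspb7 were 0.852 and 1.29 FPKM, against highest values of 0.454 and 0.932. Hspa8 was at its group's lowest, 0.679 FPKM, in the same library, as were Hsp90aa1 (51.7 FPKM), Hsph1 (84.1) and Dnaja4 (12.8). Dnajb1 (34.2 FPKM) and Cryab (94) lay there below their highest values of 40.1 and 261. The Hspa1a and Hspa1b locus, Cryaa and Hspb7 were below the filter on low values and were not tested. Another library, HF_PBS 3, held the highest Bag3, at 13.6 FPKM, against 3.05 to 7.33 FPKM in the other 15; Bag3 is an exchange factor induced by heat and by proteasome inhibition.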
